A study of Mus musculus with 6 samples.

Results

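Cathepsins are the proteases of lysosomes and lysosome-related organelles, which include the cytotoxic granules of CD8+ T cells. Most are cysteine proteases of the papain family, made as inactive proenzymes, and cells hold them and the granule proteases in check with serpins, cystatins and CTLA-2 proteins. Arrays of CD8+ T cells from mouse liver measured 10 such genes (the cells had been sorted): 6 cathepsins (Ctsw, Ctsb, Ctsc, Ctsd, Ctss and Ctsz), 2 serpins (Serpinb9 and Serpinb6b) and 2 genes of the CTLA-2 family (Ctla2a and Ctla2b). The genes were found by their names in the array files. All 10 were present, of 27370 gene names, with 15 of the 41163 probes analysed, and all 15 probes were well above background on all 6 arrays.

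TGC3 mice had the dnTGFβRII transgene (a dominant negative form of TGF-beta receptor II) and lacked the chemokine receptor CXCR3 (CXCR3-/-). TG mice carried the same transgene and had CXCR3. All were females of the C57BL/6 background, 13 to 14 weeks old, and each group had 3 samples with 1 one-colour Agilent array each, called TGC3 1 to TGC3 3 and TG 1 to TG 3. From what is known of the line, the CD4 promoter drives the transgene in T cells; the labels do not name it, and no mice without the transgene were part of the design. The comparison asked what the loss of CXCR3 changes in these cells, with activation and proliferation as the stated subject.

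The share of probes well above background was 58.9% to 63.8% in TGC3 and 59.98% to 61.4% in TG. Levels below are scaled log2 signals, the log2 of the processed spot intensity minus the array's 75th percentile, so that 0 is the signal of a probe at that percentile. They depend on each probe and cannot be set against one another between genes. Cxcr3 was -4.64, -4.21 and -4.53 in TGC3 and 6.94, 6.85 and 6.89 in TG, and the CD8 chains Cd8a (-0.20 ± 0.10, adjusted p = 0.201) and Cd8b1 (-0.085 ± 0.078, adjusted p = 0.463) did not pass limma's test. Cd3e, a chain of the T cell receptor complex, was 3.09, 3.08 and 3.02 in TGC3 and 3.35, 3.20 and 3.30 in TG, without overlap and just short of the threshold (-0.22 ± 0.066, adjusted p = 0.0519). The 3 TGC3 arrays shared one slide and scan and the 3 TG arrays another, and the effects of slide and of genotype cannot be told apart below. Nothing but the sample codes says that the samples came from separate mice, so p-values reflect sample-to-sample spread that may be technical. In cells measured in bulk, fewer cells of a kind and less RNA per cell cannot be told apart.

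All 10 genes had a lower mean in TGC3 than in TG, and 3 of them passed the test: Ctsw, Ctsc and Ctsz, each lower by less than 1.3-fold. None passed in the other direction, and at an unadjusted p under 0.05 in limma 0 of 10 were higher and 6 lower. The share of all genes past that unadjusted threshold is not given here. The test was limma's moderated test with Benjamini-Hochberg adjustment over 16389 genes, in which 9.45% of all genes were called lower, 16.6% higher and 26.0% in either direction. The median change of the 10 genes (log2 of TGC3 minus TG) was -0.30, against -0.0087 for all genes tested. A fitted change below 0 was found for 51.4% of all genes (and one above 0 for 48.6%) and for 67.8% to 72.8% of genes in signal deciles 8 to 10, the brightest, which hold 9 of the 10 (Serpinb9 lay in decile 5). In these deciles the median change was -0.070 to -0.085, and 11.8% to 13.4% of genes were called lower. Groups did not overlap for 5 of the 10 genes, near the 46.7% of all genes.

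**Figure D1:**
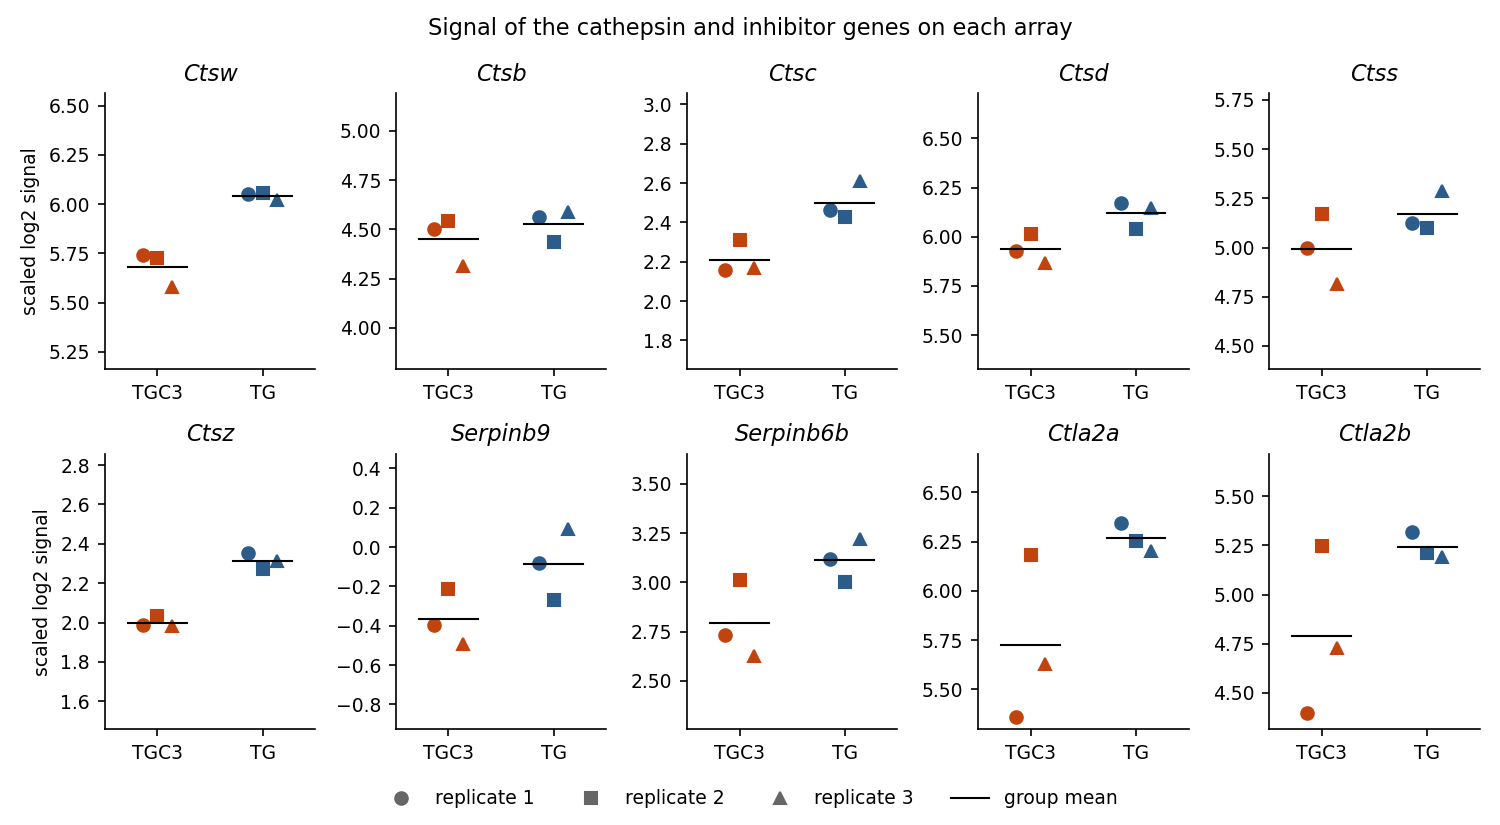
Scaled log2 signal of the brightest probe of each of the 10 genes (vertical axis) on the TGC3 arrays (orange, left) and the TG arrays (blue, right); symbols mark the replicate and bars the mean of 3 arrays, and every panel spans the same height. The 3 TGC3 points lie below the 3 TG points for Ctsw, Ctsc, Ctsd, Ctsz and Ctla2a, while TGC3 2 reaches the TG range for Serpinb6b and Ctla2b.

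Within TGC3, replicate 2 gave the highest value for 9 of the 10 genes and replicate 3 the lowest for 7. Within TG, replicate 2 gave the lowest value for 7 of the 10. The calls moved with single arrays: 6 genes were called lower without TGC3 2, and 2 without TGC3 1, TGC3 3 or TG 3. Without TG 2 the number was 1, and without TG 1 it was 0 (3 at an unadjusted p under 0.05 in limma). Over all 16389 genes, the number called lower was 1548 with all arrays and 1505 without TGC3 2. It was 573 to 813 without any 1 other array, so the calls fell across all genes too. Marker signals were summed as linear signal in multiples of the array's 75th percentile. Among TGC3 arrays, TGC3 2 had the highest sum of neutrophil markers (8.21, against 1.68 and 3.14 on TGC3 1 and TGC3 3). The same held for macrophage and monocyte markers (289.8, against 235.5 and 229.6), nearly all of it Ly6c2, which CD8+ T cells express too. Dendritic cell (32.3) and NK cell (20.3) sums were also highest on TGC3 2. Hepatocyte (6.26) and CD4+ and gamma-delta T cell (3.27) sums were lowest there, and the B and plasma cell sum (6.47) lay between. Whether these signals bear on the 10 genes was not tested.

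Cathepsin W and cathepsin C are the cathepsins most closely tied to killer cells. Ctsw encodes a papain-family protease found mainly in CD8+ T cells and NK cells. Its scaled log2 signal was 5.74, 5.73 and 5.58 in TGC3 and 6.05, 6.06 and 6.02 in TG. Every TGC3 value lay below every TG value, and the TG arrays differed from each other by less than 0.05. Ctsw was 1.28-fold lower in TGC3, a change of -0.36 ± 0.068 (SE, limma, 95% confidence interval -0.53 to -0.20, adjusted p = 0.0142). It missed the threshold without TG 1 (adjusted p = 0.0515) and without TG 2 (0.0531).

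Ctsw was read by 1 probe, A_52_P264924 (NM_009985, mm9, minus strand, chr19:5465371-5465430), and Ctsz by 2. The Ctsw probe and one of the Ctsz probes, A_52_P62085 (NM_022325, mm9, minus strand, chr2:174254084-174254143), are shown because both genes were called lower and their probes share no run of 12 or more bases with a probe of another gene described here. Both read 5′ to 3′ as in the array files.
Ctsw: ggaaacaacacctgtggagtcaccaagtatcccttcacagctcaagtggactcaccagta
Ctsz: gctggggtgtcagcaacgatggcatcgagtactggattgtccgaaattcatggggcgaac

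Ctsc encodes cathepsin C, or dipeptidyl peptidase I, which trims the proenzymes of granzymes into their active form. Its signal was 2.16, 2.31 and 2.17 in TGC3 and 2.46, 2.43 and 2.61 in TG, with no overlap of the groups. It changed by -0.29 ± 0.080 (1.22-fold lower, adjusted p = 0.0442). This call sat at the threshold: it was lost without any 1 array other than TGC3 2 (adjusted p = 0.0764 to 0.126) and after quantile normalization (0.0631). Its single probe (A_52_P195839, NM_009982, mm9, plus strand) lies at chr7:95458436-95458495.

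Ctsz encodes cathepsin Z, also called cathepsin X, a carboxypeptidase of lysosomes that is also secreted. It was the only 1 of the 5 genes with several probes for which every probe passed the test. The brighter probe (A_51_P256202, chr2:174253228-174253287) gave 1.99, 2.03 and 1.98 in TGC3 and 2.35, 2.27 and 2.31 in TG. That probe changed by -0.31 ± 0.057 (1.24-fold lower, adjusted p = 0.0129), with a 95% confidence interval of -0.45 to -0.18. The other probe, shown above, gave 1.03, 0.95 and 1.13 in TGC3 and 1.47, 1.36 and 1.42 in TG. Its change in a fit of all 25103 kept probes, of which 22.1% were called, was -0.38 ± 0.073 (adjusted p = 0.0164). On both probes the 3 TGC3 values lay below the 3 TG values. Without TG 1 the brighter probe missed the threshold (adjusted p = 0.0517).

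The other 3 cathepsins did not pass. Ctsd, the aspartic protease cathepsin D, gave 5.93, 6.01 and 5.87 in TGC3 and 6.17, 6.04 and 6.15 in TG. Its groups were separate but close, at -0.18 ± 0.070 (adjusted p = 0.106), and the second probe of the gene, whose groups overlapped, gave -0.042 ± 0.073 (adjusted p = 0.713). Ctss, which in antigen-presenting cells degrades the invariant chain of MHC class II, gave 5.00, 5.17 and 4.82 in TGC3 and 5.13, 5.10 and 5.29 in TG. TGC3 2 lay among the TG arrays, and the change of -0.18 ± 0.11 had an interval of -0.44 to 0.087 (adjusted p = 0.273). Ctsb, the lysosomal protease cathepsin B, gave 4.50, 4.54 and 4.31 in TGC3 and 4.56, 4.43 and 4.59 in TG. Its groups overlapped and the change was -0.076 ± 0.086, with an interval of -0.29 to 0.13 (adjusted p = 0.549). Its second probe gave -0.015 ± 0.073 (adjusted p = 0.902). The sign of the Ctsb change turned after quantile or cyclic loess normalization and in the deposited normalized values (0.012 to 0.017).

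**Figure D2:**
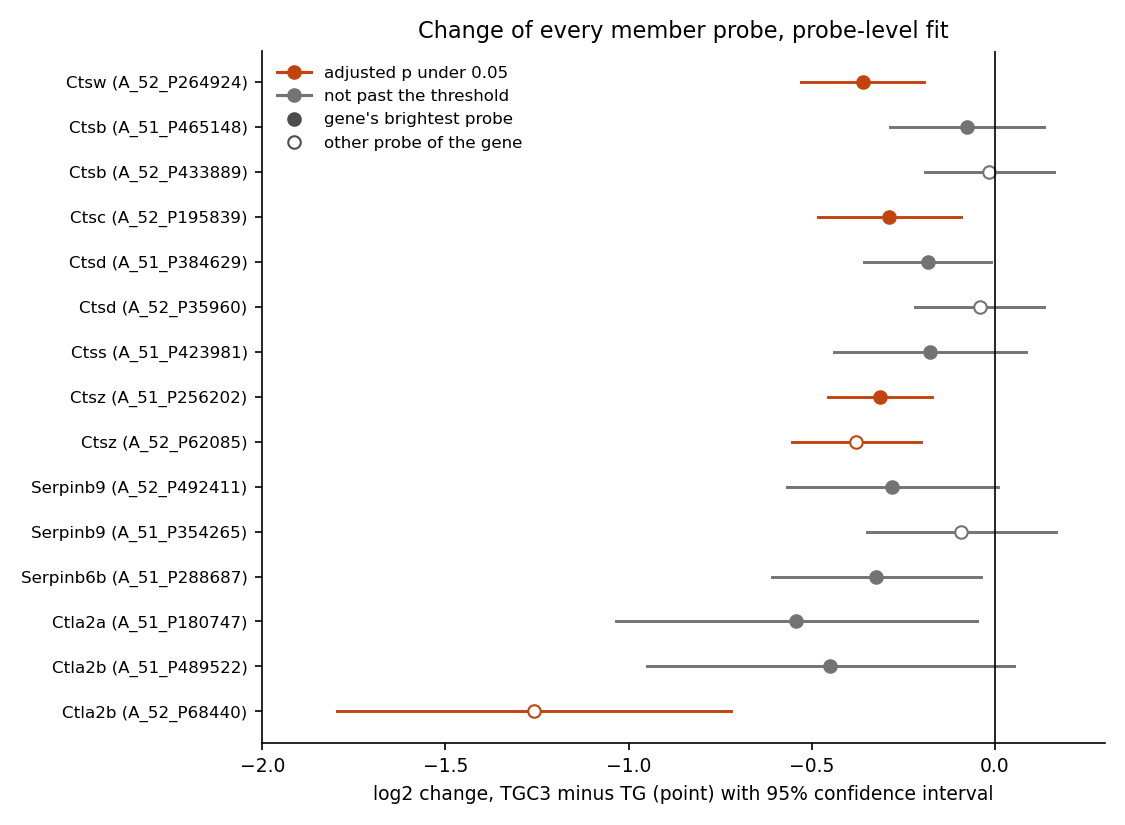
Change of each of the 15 probes (horizontal axis, log2 of TGC3 minus TG, with the 95% confidence interval) from the fit of all kept probes; filled points are the brightest probe of a gene and orange marks an adjusted p under 0.05. All 15 points lie below 0, and the probes of Ctsw, Ctsc and Ctsz and the dimmer Ctla2b probe (-1.26) passed.

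The serpins trap serine or cysteine proteases by a covalent complex. Serpinb9, the mouse inhibitor of granzyme B that shields killer cells from their own granules, gave -0.40, -0.21 and -0.49 in TGC3 and -0.082, -0.27 and 0.092 in TG. TGC3 2 lay above TG 2, so the groups overlapped, and the change was -0.28 ± 0.12 (adjusted p = 0.135). The dimmer Serpinb9 probe gave -0.091 ± 0.11 (adjusted p = 0.571). Serpinb6b, an inhibitor of mouse granzyme A, gave 2.73, 3.01 and 2.63 in TGC3 and 3.12, 3.00 and 3.22 in TG. TGC3 2 again reached the TG range, and the change of -0.32 ± 0.12 did not pass (adjusted p = 0.0951). Without TGC3 2 it was -0.43 and passed (adjusted p = 0.0294).

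Of 6 granule genes, 0 passed in limma (0 higher and 1 lower at an unadjusted p under 0.05). The changes were -0.29 ± 0.21 for Gzmb (granzyme B), 0.099 ± 0.31 for Gzma (granzyme A), 0.14 ± 0.30 for Gzmk (granzyme K), -0.0014 ± 0.13 for Prf1 (perforin) and -0.11 ± 0.082 for Nkg7, a granule membrane protein, with adjusted p of 0.344 to 0.995. Gzmm, granzyme M, had the widest difference at -1.29 ± 0.38 (adjusted p = 0.0546). It read 3.19, 4.78 and 3.67 in TGC3 and 5.22, 5.16 and 5.13 in TG, with no overlap and TGC3 2 again highest within its group.

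Ctla2a and Ctla2b were first found in activated T cells and encode small proteins that resemble the propeptide of cathepsin L and inhibit enzymes of its kind. Ctla2a had the largest change of the 10 genes, at -0.54 ± 0.21, and also the largest spread among TGC3 arrays after Ctla2b. Its signal was 5.36, 6.18 and 5.63 in TGC3 and 6.35, 6.25 and 6.20 in TG. TGC3 2 lay just under the lowest TG value, and TGC3 1 lay farthest below it. With 3 arrays a group the change had an interval of -1.04 to -0.042 and did not pass (adjusted p = 0.103). Without TGC3 2 it was -0.77 and passed (adjusted p = 0.0121).

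The brighter Ctla2b probe was, like the Ctla2a probe, highest on TGC3 2 and lowest on TGC3 1 within TGC3. It gave 4.40, 5.25 and 4.73 in TGC3 and 5.32, 5.21 and 5.19 in TG, with a change of -0.45 ± 0.21 (adjusted p = 0.166) that passed without TGC3 2 (-0.68, adjusted p = 0.0200). Both genes lie on chromosome 13. Both probes are printed because they overlap, with the 22 bases they share in capitals. These are bases 1 to 22 of the Ctla2a probe and start at base 39 of the Ctla2b probe, each 60 bases long.
Ctla2a: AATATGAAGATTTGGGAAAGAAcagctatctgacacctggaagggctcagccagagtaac
Ctla2b: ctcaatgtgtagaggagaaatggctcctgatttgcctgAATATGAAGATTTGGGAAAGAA

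The Ctla2a probe (A_51_P180747, NM_007796, mm9, minus strand) is placed at chr13:61036380-61036740, a span of 361 bases for 60 bases of sequence, and the brighter Ctla2b probe (A_51_P489522, NM_007797, minus strand) at chr13:60997410-60997469. The array files list a Ctla2b transcript (NM_007797) for the Ctla2a probe too. The signal of the Ctla2a probe may therefore mix transcripts of both genes. The brighter Ctla2b probe is listed for 2 transcripts, both of Ctla2b, but shares the 22 bases with the Ctla2a probe. The values of Ctla2a and Ctla2b are uncertain as gene levels. Among all probes of the array, no other shared 20 or more bases in a row with a probe of the 10 genes.

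The dimmer Ctla2b probe, A_52_P68440 (NM_001145801, transcript variant 2, chr13:60997247-60997306), is listed for that transcript alone. Its signal was 0.54, 1.36 and 1.19 in TGC3 and 2.42, 2.08 and 2.36 in TG. No TGC3 array reached the TG range, and the change was -1.26 ± 0.22 in the fit of all kept probes (adjusted p = 0.0130), the largest of the 15 probes. On each array the log2 signal of the brighter Ctla2b probe was subtracted from that of the dimmer one. This gave -3.85, -3.89 and -3.54 in TGC3 and -2.89, -3.14 and -2.83 in TG, without overlap. The group means differed by -0.81 (exact two-sided permutation test, p = 0.1). That is the smallest p possible with 3 arrays a group, so the test cannot decide whether the changes of the 2 probes differ.

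**Figure D3:**
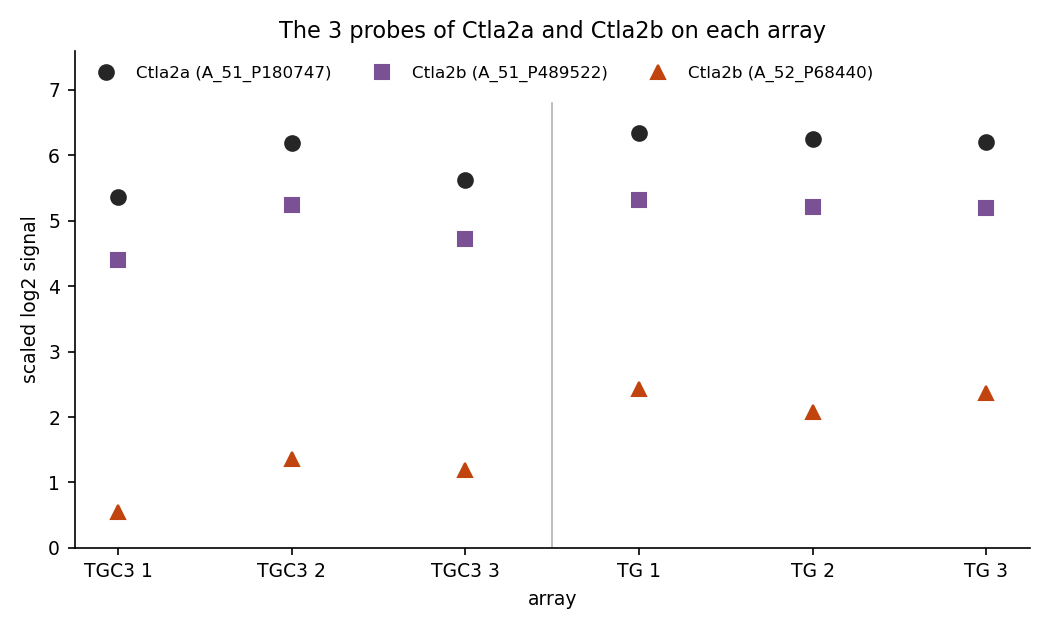
Scaled log2 signal (vertical axis) of the Ctla2a probe and both Ctla2b probes on each array, with the TGC3 arrays left of the line and the TG arrays right. TGC3 2 is the highest TGC3 array for all 3 probes, and the dimmer Ctla2b probe is between 0.54 and 1.36 in TGC3 and between 2.08 and 2.42 in TG.

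Other cathepsins gave calls at about the rate of all genes. Of 19 further cathepsins and relatives listed, all on the array, 10 were measured: 2 were higher, 1 lower and 7 passed neither way, with a median change of 0.17, against 16.6% higher and 9.45% lower over all genes. Ctsl, cathepsin L, the enzyme that CTLA-2 proteins inhibit, was -0.18, -0.24 and -0.072 in TGC3 and 0.042, 0.21 and 0.11 in TG, a change of -0.29 ± 0.076 (adjusted p = 0.0404) that was lost without any 1 array. Ctsh, a lysosomal aminopeptidase, was -3.24, -2.13 and -3.10 in TGC3 and was not well above background on any TG array. It was at least 6.38-fold higher in TGC3, measured against the lowest signals called above background on the TG arrays. It entered the test only through the TGC3 arrays, so its call is no independent evidence, and 1 other cathepsin was higher among genes above background on all 6 arrays. Ctsg, a serine protease of neutrophil granules, was 1.62-fold higher (0.69 ± 0.097, adjusted p = 0.00603), at low signals of -4.19 to -3.88 in TGC3 and -4.73 to -4.67 in TG.

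Other inhibitors included dim genes called higher. Of 38 cystatin, stefin and serpin genes listed, 34 were on the array and 16 measured: 8 were higher, 0 lower and 8 passed neither way, with a median of 0.44 (9 higher and 1 lower at an unadjusted p under 0.05 in limma). Of the 8, 5 lay in signal deciles 1 to 3, the dimmest, where 27.0% to 30.9% of all genes were called higher, against 16.6% over all deciles, and 4 were above background on fewer than 3 TG arrays. Serpinb1a, an inhibitor of neutrophil elastase and cathepsin G, gave 0.22, -0.070 and 0.42 in TGC3 and -1.73, -1.68 and -1.52 in TG, a 3.56-fold increase (1.83 ± 0.14, adjusted p = 0.00138). Its relatives Serpinb1c and Serpinb1b gave values 4.40-fold and 3.73-fold higher, but were above background on all TGC3 arrays and on 2 and 1 of 3 TG arrays, so that the TGC3 arrays alone carried them past the filter.

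Serpinb6d (1.80 ± 0.13, adjusted p = 0.00138) and Serpinb6a (0.55 ± 0.10, adjusted p = 0.0149), close relatives of Serpinb6b, were higher. Stfa2l1, of the stefin family, was at least 1.84-fold higher and not above background on any TG array, so that it too entered the test only through TGC3. Cst7, the cystatin of cytotoxic lymphocytes that regulates cathepsin C, gave 4.58, 4.83 and 4.46 in TGC3 and 4.85, 4.95 and 5.25 in TG; its change of -0.39 ± 0.14 did not pass (adjusted p = 0.0912), and it was singled out after its values were seen. The number higher was 4 among genes above background on all 6 arrays, 5 without TG 1 and 1 among genes above the median signal.

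Lysosome genes encode the enzymes and membrane proteins that work with cathepsins. Of 71 listed, 66 were measured: 2 were higher, 11 lower and 53 passed neither way, with a median of -0.12. For comparison, 9.45% of all genes tested were called lower and 16.6% higher, and the median change over all genes was -0.0087. In the brightest signal deciles, 8 to 10, 11.8% to 13.4% of all genes were called lower. Whether the lysosome genes differ from other genes of like signal was not tested. Hexa, a subunit of beta-hexosaminidase, gave 2.18, 2.02 and 2.08 in TGC3 and 2.62, 2.49 and 2.49 in TG (-0.44 ± 0.074, adjusted p = 0.0102). Galc, the galactosylceramidase (-0.76 ± 0.13, adjusted p = 0.0116), Cln3, a lysosomal membrane protein (-0.44 ± 0.089, adjusted p = 0.0182), Gaa, the acid alpha-glucosidase (-0.39 ± 0.084, adjusted p = 0.0212), and Lyst, the trafficking regulator lost in beige mice (-0.35 ± 0.091, adjusted p = 0.0363), were also lower. Atp6v0a1, a subunit of the proton pump, was 1.99-fold higher (0.99 ± 0.22, adjusted p = 0.0244). The number lower was 5 after quantile normalization, 33 with centring on the median and 10 without TGC3 2 and 2 to 5 without any 1 other array.

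TFEB and TFE3 are transcription factors that switch on lysosomal genes through a DNA element around CACGTG. Tfeb (0.032 ± 0.14) and Tfe3 (-0.076 ± 0.15) did not pass (adjusted p = 0.884 and 0.730). In RefSeq promoters of GRCm38.p6 (windows around the transcript start), found for 8 of the 10 genes, GTCACGTG on either strand was present in that of Ctsd and in none of the other 7. It was present for 2.55% of all 27025 genes with a promoter (2.25% of 32851 promoters). The shorter CACGTG, which it contains, was also found only for Ctsd among the 8, against 8.09% of all genes (7.15% of promoters).

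**Figure D4:**
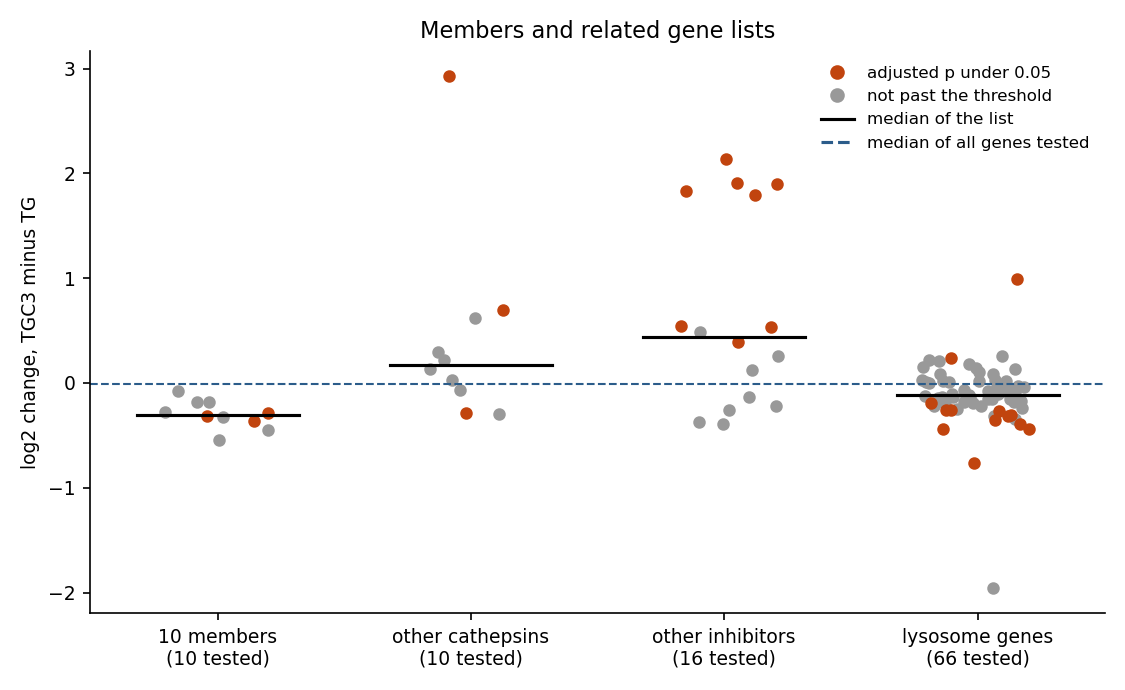
Change of each gene tested (vertical axis, log2 of TGC3 minus TG) in the 10 genes, the other cathepsins, the other inhibitors and the lysosome genes; orange points had an adjusted p under 0.05, bars are list medians and the dashed line is the median of all genes tested. The 10 genes lie between -0.54 and -0.076. Of 16 other inhibitors 8 are called higher, against 16.6% of all genes. Of these 8, 5 lie in signal deciles 1 to 3, the dimmest, and 4 were above background on fewer than 3 TG arrays. Among genes above background on all 6 arrays the number is 4.

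Cathepsins and serpins are also made by other cells that a preparation of liver CD8+ T cells could hold, so marker signals stand beside these results as summed linear signal in multiples of the 75th percentile. NK cell markers, all 10 above background, summed to 16.1 to 20.3 in TGC3 and 21.9 to 24.8 in TG, and to 13.2 to 16.28 in TGC3 and 16.26 to 18.2 in TG without Tyrobp, the brightest, where the ranges touch. Of the 10, 3 were lower (Tyrobp, Fcer1g and Styk1) and 0 higher, while Klrb1c (0.39 ± 0.14, adjusted p = 0.0921) and Klrk1 (0.22 ± 0.12, adjusted p = 0.229) had positive changes that did not pass.

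Of 8 markers of CD4+ and gamma-delta T cells, 7 were on the array (Trdc was not) and 4 were above background on at least 3 arrays. These 7 markers summed to 3.27 to 4.55 in TGC3 and 6.50 to 7.36 in TG. This difference was that of Cd163l1 (-1.35 ± 0.22, adjusted p = 0.00888), and without it the sums were 1.16 to 1.504 in TGC3 and 1.09 to 1.18 in TG. Of 11 neutrophil markers, 10 were on the array (Ly6g was not) and 4 were above background on at least 3 arrays. These 10 markers summed to 1.68 to 8.21 in TGC3 and 0.14 to 0.21 in TG. Without S100a9 the sums were 0.50 to 2.18 in TGC3 and 0.13 to 0.19 in TG. Csf3r, Elane and Cxcr2 were above background on no array.

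Macrophage and monocyte markers, 12 of 22 above background on at least 3 arrays, summed to 229.6 to 289.8 in TGC3 and 256.2 to 271.5 in TG, nearly all of it Ly6c2, which CD8+ T cells express too. Without Ly6c2 the sums were 2.60 to 7.99 in TGC3 and 2.58 to 3.14 in TG. Of the 12, 4 were higher and 0 lower, and the markers above background on no array included C1qa, C1qc, Timd4, Msr1 and Cd163. Dendritic cell markers (11 of 15 above background on at least 3 arrays) summed to 23.9 to 32.3 in TGC3 and 24.8 to 30.7 in TG, and to 9.70 to 10.8 in TGC3 and 6.90 to 10.4 in TG without Itgax. Of these 11, 4 were higher, among them Zbtb46 (1.36 ± 0.11, adjusted p = 0.00169) and Cd74 (0.76 ± 0.19, adjusted p = 0.0361), and 0 lower.

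B and plasma cell markers (6 of 12 above background on at least 3 arrays) summed to 6.23 to 6.76 in TGC3 and 6.29 to 7.64 in TG, and to 0.80 to 1.37 in TGC3 and 1.04 to 1.21 in TG without Cd79b. Of the 6, 4 were higher, among them Jchain and Ms4a1 (the second above background on no TG array), and 1 lower (Cd22), with a median change of 0.69. Of 16 hepatocyte markers, 14 were on the array (Tf and Serpina1a were not) and 2 were above background on at least 3 arrays. These 14 markers summed to 6.26 to 7.61 in TGC3 and 5.09 to 5.40 in TG, nearly all of it Ass1 (0.45 ± 0.090, adjusted p = 0.0176). Without Ass1 the sums were 0.17 to 0.19 in TGC3 and 0.22 to 0.25 in TG. The part of these cells in the differences was not tested.

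**Figure D5:**
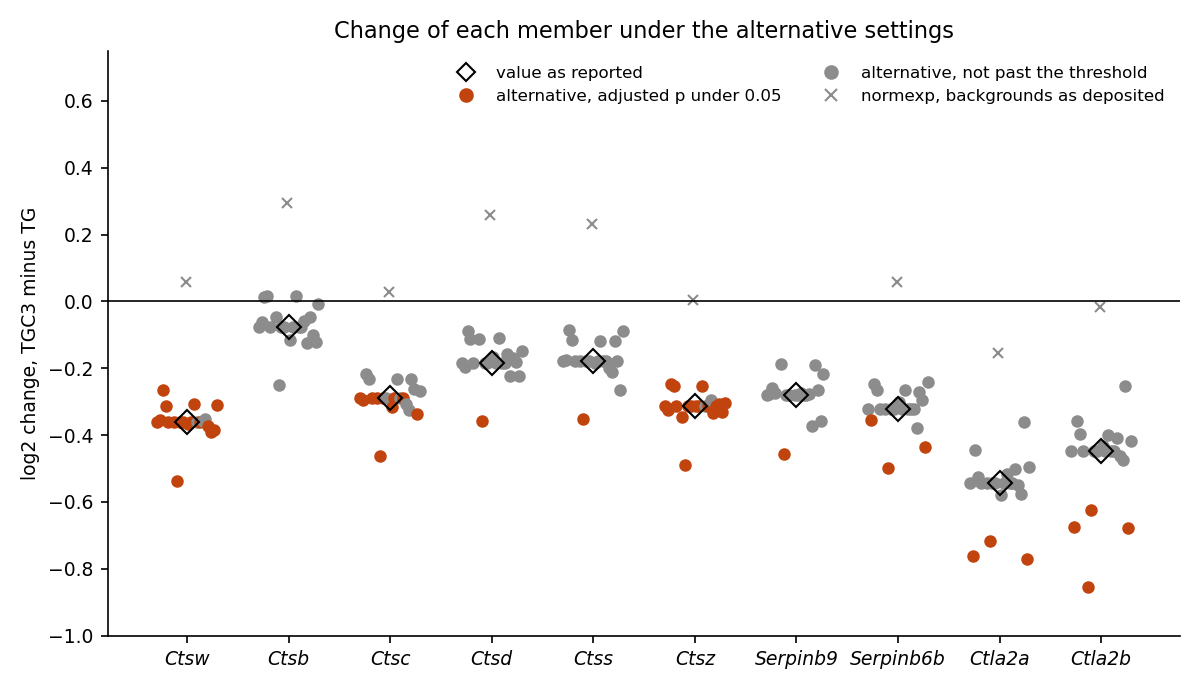
Change of each of the 10 genes (vertical axis, log2 of TGC3 minus TG) as reported (diamond) and under 21 alternative settings (20 for Serpinb9); orange marks an adjusted p under 0.05 and crosses the normexp correction on the backgrounds as deposited. Ctsw passed in 17 of 21 settings, Ctsz in 18, Ctsc in 10 and Ctsb in 0.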

How the data were processed

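Cy3-labelled RNA of 6 samples was read on 1-colour Agilent arrays of 45018 spots. Per the file headers, Feature Extraction 10.7.3.1 (10.7.1.1 in the submitters' processing notes) gave 3 kinds of intensity for each spot: the raw mean, its background, and a processed signal corrected for background and spatial trend. The deposited normalized table holds log2 values, with 6 columns of equal median (5.57) that correlate at 0.999 to 1.00 with the log2 processed signal; how it was made is not given in the sources used here, and it served as an alternative.

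Outlier spots were left out (11 probes) and spots of a probe averaged; 0 spots were saturated. The filter required a signal well above background on 3 or more of the 6 arrays (25103 probes kept). Probes were named through RefSeq accession (27660 probes), symbol (5595) or synonym (470) or by the file's name (7449), and the brightest probe left stood for its gene. The difference TGC3 minus TG was tested with limma 3.58.1 in R 4.3.3 (lmFit, eBayes, two-sided), adjusted p under 0.05. Other tools were data.table (1.17.8), statmod 1.5.0, Python 3.11.15, numpy 2.4.6, pandas 2.3.3, scipy 1.17.1 and matplotlib 3.10.9.

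The 10 genes, the lists, the tests and the settings were chosen with earlier results of these data known. Genes named in the text are the 10, up to 6 called genes of each list with the largest change, 6 granule genes and the 4 check genes; Cst7, Tfeb, Tfe3 and the single markers given with values were added after their values were seen. On simulated data for this comparison (16389 genes), the test called 37 of 67 genes at a 1.5-fold change, 51 of 67 at 2-fold, 64 of 66 at 4-fold and 10 of 16189 that had no change. No change smaller than 1.5-fold was simulated, so these rates do not cover the changes of Ctsw (1.28-fold), Ctsz (1.24-fold) and Ctsc (1.22-fold). Far fewer genes were changed in the simulation than the 26.0% called in the data, so its adjusted threshold differs too. Replicate numbers do not pair the samples: deviations of same-numbered arrays correlated at -0.099 to -0.0031. Coordinates come from the array files (mm9), without exon annotation. The number of arrays limits the precision. Alternatives covered normalization, background, filter, probe choice, variance model, array weights, a replicate block, gene names and leaving out each array, and, after the data were seen, cyclic loess, a repaired normexp (7 aberrant backgrounds of TG 3 replaced) and genes above the median signal.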

Additional observations from a re-analysis of the deposited data

How the results depend on the processing

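The number of the 10 genes higher in TGC3 was 0 in all 21 alternatives. The number lower, 3 as reported, was 9 with centring on the median, which moves the median of all genes to -0.18, and 6 with array weights. It was 0 with the replicate block (4 at an unadjusted p under 0.05 in limma), and leaving out 1 array gave 0 to 6. With normexp on the backgrounds as deposited it was 0 (0 at an unadjusted p under 0.05 in limma). Over all 16389 genes, normexp on these backgrounds called 0 higher and 1 lower. Its counts of 0 here and for the lists below are therefore not particular to them. Lower calls over all genes were 4766 with median centring, 2414 with array weights and 554 with the replicate block, against 1548 as reported. The median of the 10 changes was -0.48 with median centring and 0.042 with normexp, under which the changes of Ctsw (0.057), Ctsb (0.29), Ctsc (0.028), Ctsd (0.26), Ctss (0.23), Ctsz (0.0029) and Serpinb6b (0.058) turned positive without passing. With the 7 aberrant backgrounds replaced, 3 were lower and all 10 changes negative. Ctsb also turned positive after quantile normalization (0.016), cyclic loess (0.012) and in the deposited values (0.017). In the replicate block fit the adjusted p was 0.0503 for Ctsw, 0.0633 for Ctsz and 0.117 for Ctsc. Array weights and leaving out TGC3 2 called the same 6 genes lower.

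Other cathepsins higher (2) were 0 with normexp, 1 with the repaired normexp, 1 with a filter on all 6 arrays and 0 among genes above the median signal. Other cathepsins lower (1) were 2 with median centring, with array weights, in the probe-level fit, with a robust trended variance, the repaired normexp and genes above the median signal, and 0 with normexp, no filter, the replicate block, cyclic loess and without any 1 array (0 to 0). Other inhibitors higher (8) were 0 with normexp, 4 with a filter on all 6 arrays, 5 with the replicate block, 1 among genes above the median signal and 5 to 8 without 1 array; lower (0) were 3 with median centring, 1 with array weights and 0 to 1 without 1 array. Lysosome genes higher (2) were 1 with median centring and among genes above the median signal, 0 with normexp, no filter and the replicate block, and 0 to 1 without 1 array. Lysosome genes lower (11) were 5 after quantile normalization, in the deposited values and after cyclic loess, 33 with median centring, 0 with normexp, 2 with no filter, 3 with the replicate block and 2 to 10 without 1 array. The causes were not tested.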
